A study of Mus musculus with 14 samples.

Results

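The BCL2 family genes described here are 9 genes whose proteins set whether a mitochondrion keeps or loses its outer membrane, measured in cultured BFU-E of the mouse (the burst-forming unit of the red cell lineage, an early committed progenitor). They were chosen by gene name: the survival genes Bcl2, Bcl2l1 and Mcl1, the BH3-only death genes Bcl2l11, Bad, Bid, Bmf and Bik, and the pore-forming effector Bak1. All 9 were listed in every library, among 22270 gene names kept in both sets of libraries. RNA was sequenced in 12 libraries of C57BL/6 fetal liver BFU-E grown in StemSpan SFEM II medium. The 4 groups of 3 libraries were compound OB at 100 µM, the DMSO controls of the OB set, compound PD at 3 nM, and the DMSO controls of the PD set. DMSO is the solvent, and both compounds are known here by code name only. Whether the 3 libraries of a group are separate cultures is not stated in the labels, and the p-values then measure only the spread between these samples, which may be technical. A CREB immunoprecipitation and its input DNA belong to the same series and were not analysed here.

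Survival proteins of the family hold the effectors BAK1 and BAX in check at the mitochondrial membrane. BH3-only proteins are made or activated under stress or loss of growth factor, bind the survival proteins and release the effectors, which then form pores and let out cytochrome c. In red cell formation, BCL-XL, the protein of Bcl2l1, is known for keeping late erythroblasts alive under erythropoietin signalling, MCL1 is needed by early progenitors, and BIM, the protein of Bcl2l11, is a main BH3-only antagonist of survival in blood cells. Much of this control is on the proteins (cleavage of BID, phosphorylation of BAD, rapid turnover of MCL1), which RNA levels do not measure.

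The upstream windows of the 3 survival genes and of Bmf are shown because Bcl2l1 had the highest level in the PD set, Mcl1 stayed nearly even there as deposited and Bmf was the lowest member of the OB set, and because every motif match found among the members' windows lies in those of Bcl2, Bcl2l1 and Bmf. Each is the 250 bases before a RefSeq start site on GRCm38.p6 (mm10), on the gene's strand, with matches to a searched motif in capitals. The motifs were the CREB half-site TGACG, the GATA motif AGATAA and the STAT motif TTCNNNGAA, searched on both strands. RefSeq windows were matched for 8 of the 9 members, Bik being the exception, and Bcl2l1 and Bmf have 3 start sites each in that table. Which start site was used in these cells was not measured.
Bcl2 (chr1:106714291-106714540, minus strand): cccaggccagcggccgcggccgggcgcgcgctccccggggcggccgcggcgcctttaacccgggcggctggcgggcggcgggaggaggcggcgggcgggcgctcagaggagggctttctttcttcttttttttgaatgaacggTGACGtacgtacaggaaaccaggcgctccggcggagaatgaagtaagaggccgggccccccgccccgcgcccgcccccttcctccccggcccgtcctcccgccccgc
Bcl2l1, start site 1 of 3 (chr2:152828490-152828739, minus strand): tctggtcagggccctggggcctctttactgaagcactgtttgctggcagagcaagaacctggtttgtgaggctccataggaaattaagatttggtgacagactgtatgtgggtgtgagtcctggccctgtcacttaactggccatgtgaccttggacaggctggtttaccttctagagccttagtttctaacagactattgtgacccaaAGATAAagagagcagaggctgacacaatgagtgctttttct
Mcl1 (chr3:95658471-95658720, plus strand): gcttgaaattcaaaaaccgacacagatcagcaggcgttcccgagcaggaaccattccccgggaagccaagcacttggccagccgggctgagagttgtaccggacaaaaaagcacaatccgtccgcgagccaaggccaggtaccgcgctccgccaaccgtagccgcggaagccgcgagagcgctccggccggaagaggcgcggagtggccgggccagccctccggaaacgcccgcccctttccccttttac
Bmf, start site 3 of 3 (chr2:118549687-118549936, minus strand): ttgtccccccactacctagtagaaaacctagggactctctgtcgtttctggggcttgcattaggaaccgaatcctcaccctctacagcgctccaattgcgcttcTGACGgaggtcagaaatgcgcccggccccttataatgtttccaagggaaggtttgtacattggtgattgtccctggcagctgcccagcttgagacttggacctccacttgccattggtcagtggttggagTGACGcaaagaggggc

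The capitals mark 1 TGACG match in the Bcl2 window, 1 AGATAA match in the Bcl2l1 window and 2 TGACG matches in the Bmf window. The Mcl1 window held none of the searched letters, and neither did the windows of Bcl2l11, Bad, Bid and Bak1 or the other windows of Bcl2l1 and Bmf. Over all 32851 RefSeq windows of this length, 17.765% held TGACG, 9.988% held AGATAA and 7.02% held TTCNNNGAA, so a match in 1 window is common. A match is a description of letters and not a bound site.

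Levels are given in FPKM, fragments scaled by transcript length and by the mapped fragments of the library, as the authors deposited them. FPKM is scaled to gene length, so genes can be set beside each other within a library. The OB and PD sets list different numbers of genes and were normalized separately, so a level in one set is set beside a level in the other for orientation, with no test. Sequencing depth is not given with these values. The median-ratio factor of a library is the median over genes of its level relative to its set. It was 0.834 for PD DMSO replicate 1 and 1.01 to 1.07 for the other libraries of the PD set. A typical gene was thus lower in that library as deposited. In the OB set the factor ran from 0.934 in OB DMSO replicate 2 to 1.02. Levels are not divided by this factor unless stated. In a bulk sample, fewer cells of a type and less RNA per cell cannot be told apart.

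The labelled cell type and the libraries were checked before the members were read. None of 9 erythroid progenitor markers was at 0 in any group, and their summed level was 1467 to 1510.5 FPKM with compound OB and 1439 to 1565 FPKM in OB DMSO. It was 1354 to 1442 FPKM with compound PD and 1455 to 1848 FPKM in PD DMSO, the highest value being PD DMSO replicate 1. Summed levels of 6 hepatocyte markers stayed at or below 0.99 FPKM in all 12 libraries. The PD set also held myeloid RNA: 8 neutrophil and precursor markers, none at 0, summed to 15005 to 18617 FPKM with compound PD and 6216 to 9286 FPKM in PD DMSO, against 120.2 to 350.6 FPKM with compound OB and 99.1 to 410.6 FPKM in OB DMSO. The 6 megakaryocyte markers and 6 mast cell and basophil markers, again none at 0, overlapped between the PD groups, the first with 4147 to 7395 FPKM under compound PD and 2270 to 4482 FPKM in PD DMSO, the second with 1345 to 2745 FPKM under compound PD and 783 to 1539 FPKM in PD DMSO. As deposited, summed markers of 3 further kinds lay higher in every compound PD library than in every PD DMSO library. The 7 macrophage markers had 24.0 to 30.7 FPKM under compound PD and 12.3 to 23.7 FPKM in PD DMSO. The 6 lymphoid markers had 27.7 to 30.3 FPKM under compound PD and 10.3 to 16.7 FPKM in PD DMSO. The 6 endothelial and stromal markers had 17.7 to 29.6 FPKM under compound PD and 12.3 to 17.2 FPKM in PD DMSO. The macrophage and endothelial sums were only narrowly apart, and the endothelial ones overlap once divided by the median-ratio factors. Replicate 1 of both OB groups stood apart, with Cdkn1a, a target of p53, at 227.0 FPKM in compound OB replicate 1 and 320.8 FPKM in OB DMSO replicate 1 and at 67.5 to 81.9 FPKM in the other OB libraries. Megakaryocyte markers were high in the same libraries, with 953.6 FPKM in compound OB replicate 1 and 1338 FPKM in OB DMSO replicate 1, against 569.3 and 611.3 FPKM in the other compound OB libraries and 472.5 and 554.9 FPKM in the other OB DMSO libraries. So were neutrophil markers, with 350.6 FPKM in compound OB replicate 1 and 410.6 FPKM in OB DMSO replicate 1, against 99.1 to 126.1 FPKM in the other OB libraries. In OB DMSO replicate 2, the ribosomal RNA entry Rn45s reached 12380 FPKM, against 175.1 to 955.3 FPKM in the other 5 libraries of that set. Rmrp reached 2069 FPKM in the same library, against 11.25 to 51.47 FPKM in the others of that set. Rpph1 reached 1285 FPKM there, against 10.96 to 44.83 FPKM in the others.

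None of the 9 members passed the test under either compound. As deposited, Bad under compound PD was the 1 member whose groups lay fully apart. By group mean, Bcl2l1 and Mcl1 were the most abundant members in all 4 groups. Bak1, Bid and Bad followed, at 20.2 to 51.5 FPKM in single libraries, while Bcl2l11, Bcl2, Bik and Bmf lay between 0 and 6.41 FPKM. The ranges of Bcl2l1 and Bak1 overlapped in both OB groups, and in compound OB replicate 3 Bid (42.45 FPKM) lay above Bcl2l1 (41.35 FPKM). The order of the 3 survival genes differed between the sets: Bcl2l1 and Mcl1 overlapped in both OB groups, and Bcl2l1 lay above Mcl1 without overlap in both PD groups. Bcl2 was the lowest of the 3 in every library. Of 8 members that averaged at least 1 FPKM in the OB set, 0 passed an adjusted p of 0.05 under compound OB, where 0 of 10069 genes did (0%), and 0 had an unadjusted p under 0.05, where 3.69% of genes did. With replicate numbers as a block, which paired the OB libraries, 7 genes passed (0.0695%), again with 0 members among them. Within all 3 pairs, Bcl2 and Bad were higher with compound OB, as 23.1% of tested genes were, and Bmf was lower, as 16.7% were. No member separated compound OB from OB DMSO without overlap, where 5.31% of genes lay above the controls in all libraries and 3.43% below. Of 8 members tested under compound PD, 0 passed, where 3 of 11887 genes did (0.0252%), and 0 had an unadjusted p under 0.05, where 10.7% of genes did.

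**Figure D1:**
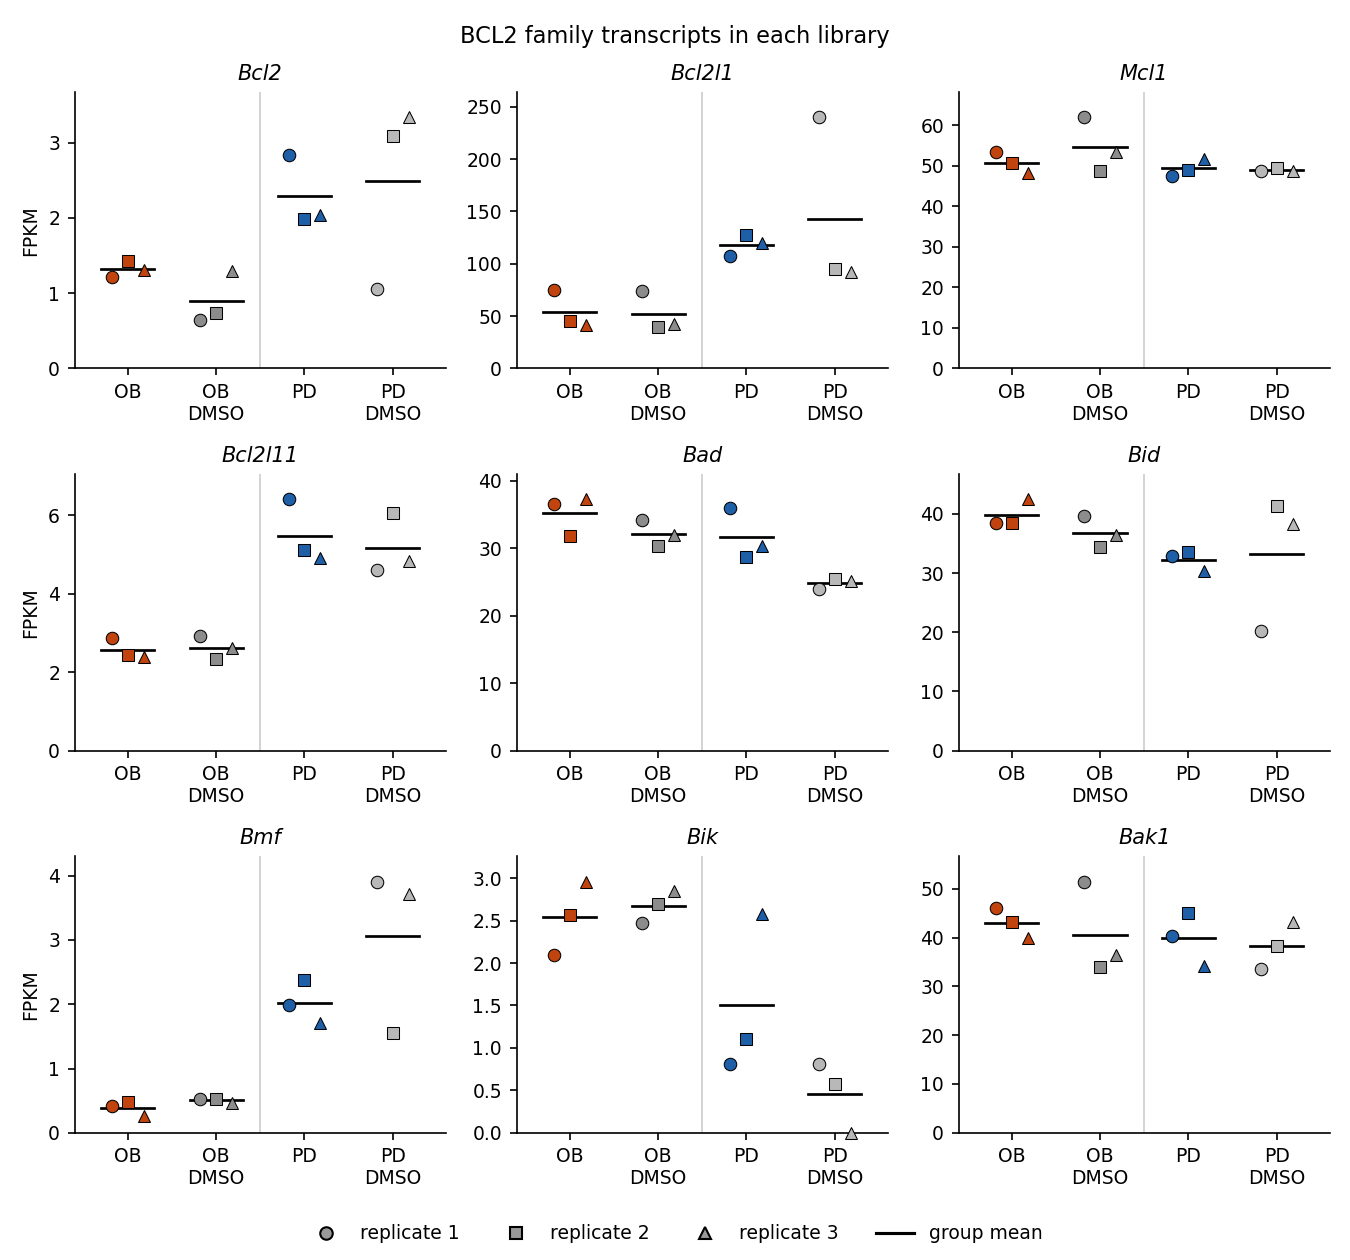
FPKM of the 9 genes in each library (vertical axes from 0, each with its own scale), compound left of its DMSO control, with symbols for replicates and bars for group means. As deposited, the groups of each set overlap for every gene with the exception of Bad in the PD set (those of Bik there meet at 0.81 FPKM). PD DMSO replicate 1 is the high Bcl2l1 point at 240.1 FPKM.

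Among the survival genes, Bcl2l1 had 75.2, 45.0 and 41.4 FPKM with compound OB, against 74.2, 39.1 and 42.3 FPKM in OB DMSO. Replicate 1 was high in both groups, and the other libraries lay close together. The mean was 53.9 ± 18.6 FPKM with compound OB and 51.9 ± 19.4 FPKM in OB DMSO (SD, n = 3 each), a log2 difference of 0.06 ± 0.31 (SE) with a 95% interval from -0.67 to 0.80 and an adjusted p of 1.00 by limma. In the PD set Bcl2l1 had 106.9, 127.4 and 119.4 FPKM with compound PD, against 240.1, 95.3 and 92.4 FPKM in PD DMSO. PD DMSO replicate 1 was the highest library of the set, while the other PD DMSO libraries were its lowest. The means were 117.9 ± 10.3 FPKM with compound PD and 142.6 ± 84.4 FPKM in PD DMSO (SD, n = 3 each), a log2 difference of -0.13 (95% interval -0.87 to 0.62, adjusted p 0.967 by limma).

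Without PD DMSO replicate 1, all 3 compound PD libraries lay above the remaining PD DMSO libraries for Bcl2l1, and its log2 difference turned to 0.32 ± 0.10 (SE; 95% interval 0.08 to 0.57, adjusted p 0.162 by limma). With that library left out, 18.2% of genes lay above in the same way, and 20% had an unadjusted p under 0.05. PD DMSO replicate 1 stood out by its Bcl2l1 value, so the turn in direction follows from leaving it out. That library also had the highest summed erythroid markers of the set, 1848 FPKM, against 1354 to 1442 FPKM with compound PD and 1455 and 1485 FPKM in the other PD DMSO libraries. Among the PD DMSO libraries it was also apart in the megakaryocyte sum (4482 FPKM, against 2295 and 2270 FPKM in the others), the mast cell and basophil sum (1539 FPKM, against 783 and 842 FPKM) and the neutrophil sum (6216 FPKM, against 9286 and 8790 FPKM). The part of these marker shifts in the Bcl2l1 values was not tested. Under compound OB, with replicate numbers as a block, the log2 difference of Bcl2l1 was 0.06 with a 95% interval of -0.11 to 0.23 (adjusted p 0.669 by limma). It was 0.08 with the whole replicate 1 pair left out as well (adjusted p 0.582), and 0.35 with OB DMSO replicate 1 alone left out, which keeps its high partner (adjusted p 0.504).

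Mcl1 varied least of the members in the PD set as deposited, and Bak1 varied least after the libraries were rescaled. Mcl1 had 47.5, 49.0 and 51.6 FPKM with compound PD, against 48.6, 49.5 and 48.7 FPKM in PD DMSO, including the replicate in which Bcl2l1 stood at 240.1 FPKM. The groups overlapped, and the highest library was 1.09 times the lowest. The means were 49.3 ± 2.06 FPKM with compound PD and 49.0 ± 0.501 FPKM in PD DMSO (SD, n = 3 each), a log2 difference of 0.01 (95% interval -0.31 to 0.33, adjusted p 0.993 by limma). Its coefficient of variation over the 6 libraries was 2.76%, and 0.0505% of the 11887 genes tested had a smaller one, the median being 22.0%. That evenness depended on the scaling: after median-ratio scaling of the libraries, applied to this coefficient after seeing it, the value was 9.77% for Mcl1 and 9.33% for Bak1, 12.3% of genes had a smaller one than Mcl1 and the median was 20.5%. In the OB set Mcl1 had 53.3, 50.7 and 48.1 FPKM with compound OB, against 62.0, 48.6 and 53.4 FPKM in OB DMSO, with overlapping groups. The log2 difference was -0.10 (95% interval -0.37 to 0.17, adjusted p 1.00 by limma), and the coefficient of variation was 9.65% against a median of 13.7% over all genes tested in that set.

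Bcl2, the founding survival gene of the family, was low throughout. It had 1.21, 1.43 and 1.31 FPKM with compound OB, against 0.64, 0.74 and 1.29 FPKM in OB DMSO. The lowest compound library lay below the highest control, so the groups overlapped. The means were 1.32 ± 0.110 FPKM with compound OB and 0.89 ± 0.35 FPKM in OB DMSO (SD, n = 3 each), a log2 difference of 0.31 ± 0.16 (SE; 95% interval -0.08 to 0.70, adjusted p 1.00 by limma), the largest estimate among the members under compound OB. With the replicate block the adjusted p of Bcl2 under compound OB was 0.344 by limma. Fold changes on the log2(FPKM + 1) scale understate the change of a gene this low. With compound PD, Bcl2 had 2.83, 1.99 and 2.04 FPKM, against 1.05, 3.09 and 3.34 FPKM in PD DMSO. PD DMSO replicate 1 was the lowest library of that set for Bcl2 and the highest for Bcl2l1. The log2 difference was -0.02 (95% interval -0.78 to 0.74, adjusted p 0.995 by limma), and without that library it was -0.37 (95% interval -0.94 to 0.21, adjusted p 0.458 by limma).

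Among the BH3-only genes, Bad came closest to a difference under compound PD. BAD binds BCL-XL and BCL2 and is held inactive by phosphorylation under survival signals. Bad had 35.9, 28.7 and 30.4 FPKM with compound PD, against 24.0, 25.4 and 25.2 FPKM in PD DMSO. The groups did not overlap as deposited. All compound PD libraries lay above all PD DMSO libraries for Bad alone of 8 members, where 13.1% of genes tested did. That separation depended on the scaling, as was seen after the values were known. The median-ratio factor was 0.834 for PD DMSO replicate 1 and 1.02 for compound PD replicate 2. Divided by these factors, the Bad value of the first lies above that of the second. The means were 31.7 ± 3.79 FPKM with compound PD and 24.9 ± 0.783 FPKM in PD DMSO (SD, n = 3 each), a log2 difference of 0.33 ± 0.16 (SE; 95% interval -0.03 to 0.69, adjusted p 0.511 by limma). The summed neutrophil, macrophage, lymphoid and endothelial markers were higher in every compound PD library as well, the macrophage and endothelial ones only narrowly. Their part in the Bad values was not tested. With compound OB, Bad had 36.5, 31.8 and 37.2 FPKM, against 34.2, 30.3 and 32.0 FPKM in OB DMSO, with overlapping groups and a log2 difference of 0.12 (95% interval -0.12 to 0.37, adjusted p 1.00 by limma). The replicate block gave Bad an adjusted p of 0.401 by limma.

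Bid, whose protein links death receptors to mitochondria once caspase-8 has cut it, had 38.4, 38.5 and 42.5 FPKM with compound OB, against 39.6, 34.5 and 36.4 FPKM in OB DMSO. The groups overlapped, and the log2 difference was 0.11 (95% interval -0.12 to 0.34, adjusted p 1.00 by limma). With compound PD, Bid had 32.9, 33.5 and 30.4 FPKM, against 20.2, 41.4 and 38.3 FPKM in PD DMSO. PD DMSO replicate 1 was again apart, here as the lowest library. It was still the lowest after median-ratio scaling, a check added after seeing the values, with 24.1 FPKM against a highest of 39.9 FPKM. The log2 difference as deposited was 0.02 (95% interval -0.56 to 0.60, adjusted p 0.993 by limma). Without PD DMSO replicate 1, all 3 compound PD libraries lay below the remaining controls. The log2 difference was then -0.30 (95% interval -0.56 to -0.03, adjusted p 0.207 by limma). Leaving out that library gave 167 called genes of 11941 (1.4%) and 0 called members. Bcl2l1 and Bid, 2 of the 9 members then tested, had an unadjusted p under 0.05, where 20% of genes did. All compound PD libraries then lay above the remaining controls for 18.2% of genes and below them for 20.8%.

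Bcl2l11, the gene of BIM, had 2.86, 2.44 and 2.38 FPKM with compound OB, against 2.93, 2.34 and 2.61 FPKM in OB DMSO. The ranges of the groups nearly coincided, and the log2 difference was -0.03 (95% interval -0.33 to 0.28, adjusted p 1.00 by limma). It had 6.41, 5.11 and 4.91 FPKM with compound PD, against 4.61, 6.07 and 4.83 FPKM in PD DMSO, again with overlap. The log2 difference was 0.07 (95% interval -0.42 to 0.56, adjusted p 0.972 by limma).

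Bmf in the OB set and Bik in the PD set averaged under 1 FPKM. BMF is a BH3-only protein known to be kept at the cytoskeleton in healthy cells. Bmf had 0.42, 0.48 and 0.26 FPKM with compound OB, against 0.52, 0.53 and 0.46 FPKM in OB DMSO, below the minimum for a test. In the PD set it had 1.99, 2.38 and 1.71 FPKM with compound PD, against 3.91, 1.56 and 3.72 FPKM in PD DMSO. The control libraries spread across the compound values, and the log2 difference was -0.37 (95% interval -1.07 to 0.33, adjusted p 0.798 by limma). Bik, whose protein sits mainly at the endoplasmic reticulum, had 2.09, 2.56 and 2.96 FPKM with compound OB, against 2.47, 2.70 and 2.85 FPKM in OB DMSO. The groups overlapped, with a log2 difference of -0.06 (95% interval -0.39 to 0.27, adjusted p 1.00 by limma). Under compound PD, Bik had 0.81, 1.11 and 2.58 FPKM, against 0.81, 0.57 and a listing at 0 in PD DMSO, below the minimum for a test.

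Bak1, the effector whose protein is already seated in the mitochondrial membrane, had 46.1, 43.2 and 39.9 FPKM with compound OB, against 51.5, 33.9 and 36.5 FPKM in OB DMSO. OB DMSO replicate 1 was the highest library and the other controls were the lowest, so the groups overlapped. The log2 difference was 0.10 (95% interval -0.29 to 0.50, adjusted p 1.00 by limma), and it was 0.28 without that library (95% interval 0.04 to 0.53, adjusted p 0.209 by limma). Leaving out that library alone keeps its partner, and 1931 of 10021 genes then had an unadjusted p under 0.05. With the replicate block the log2 difference of Bak1 was 0.10 (adjusted p 0.634 by limma). With the replicate 1 pair left out as well it was 0.23 (adjusted p 0.104 by limma). There, 2782 of 9963 genes had an unadjusted p under 0.05. With compound PD, Bak1 had 40.4, 44.9 and 34.3 FPKM, against 33.5, 38.2 and 43.2 FPKM in PD DMSO. The groups overlapped fully, with a log2 difference of 0.06 (95% interval -0.34 to 0.45, adjusted p 0.973 by limma).

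**Figure D2:**
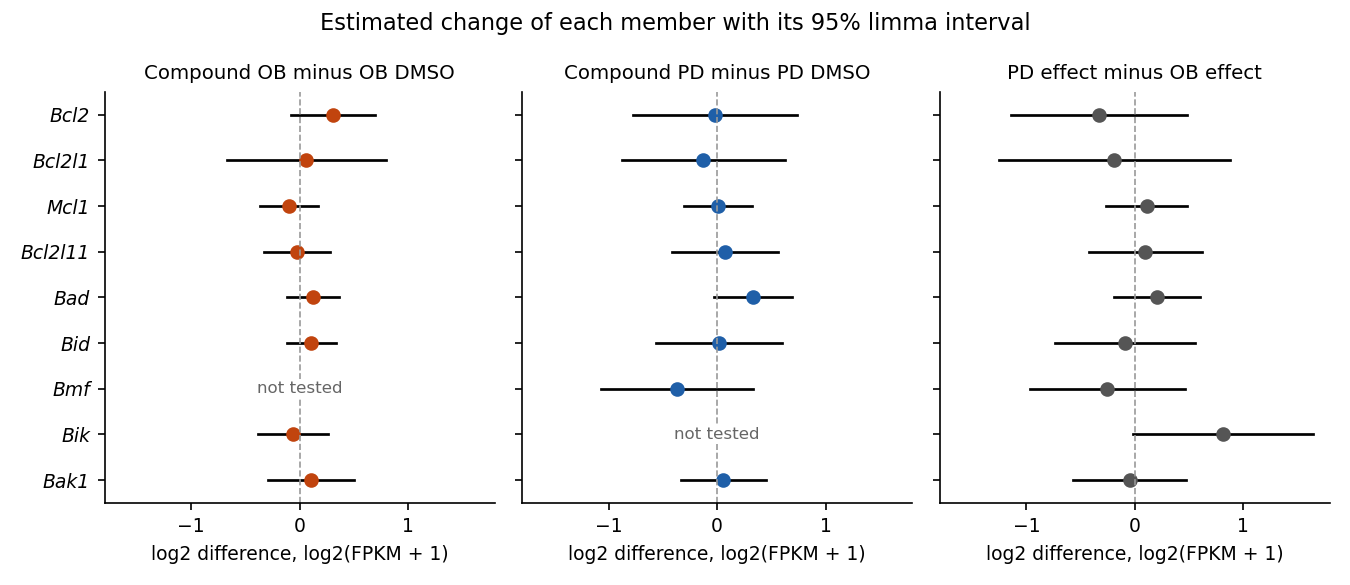
Log2 difference (horizontal axis, on the log2(FPKM + 1) scale) of each gene for compound OB minus OB DMSO, compound PD minus PD DMSO, and the PD effect minus the OB effect, with 95% limma intervals as lines. Every interval includes 0, and the narrowest are those of Bid and Bad under compound OB.

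The intervals limit how large a change could have gone unseen. Under compound OB, those of Mcl1, Bcl2l11, Bad, Bid and Bik stayed within -0.39 and 0.37 on the log2 scale, and that of Bcl2l1 reached -0.67 and 0.80. In the paired fit the widest was that of Bcl2, from -0.02 to 0.63, and that of Bcl2l1 narrowed to -0.11 to 0.23. Those of Mcl1, Bcl2l11, Bad, Bid and Bik stayed within -0.30 and 0.29 in the paired fit. Under compound PD, the interval of Mcl1 was -0.31 to 0.33, and those of Bcl2l1, Bcl2 and Bmf reached down to -0.87, -0.78 and -1.07. A p that misses the threshold does not show that a gene was equal in both groups.

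The effects of the compounds were compared by their difference, the compound PD effect minus the compound OB effect. Compound, dose and set go together in this design and cannot be told apart. None of the 9 members passed, where 0 of 10311 genes did (0%) by limma, and 0 members had an unadjusted p under 0.05, where 7.38% of genes did. Bik had the largest estimate, 0.82 on the log2 scale (95% interval -0.01 to 1.65, adjusted p 0.672 by limma), and rests on values between 0 and 2.96 FPKM. The estimates were -0.19 for Bcl2l1 (95% interval -1.26 to 0.88), -0.33 for Bcl2 (95% interval -1.14 to 0.48) and 0.11 for Mcl1 (95% interval -0.26 to 0.49). The other 5 members lay between -0.25 for Bmf and 0.21 for Bad. Without PD DMSO replicate 1, the difference was -0.68 for Bcl2, -0.41 for Bid and 0.99 for Bik, with adjusted p of 0.245 to 0.274 by limma, while 15 of 10309 genes passed (0.146%). These 3 of 9 members had an unadjusted p under 0.05, where 14.4% of genes did.

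**Figure D3:**
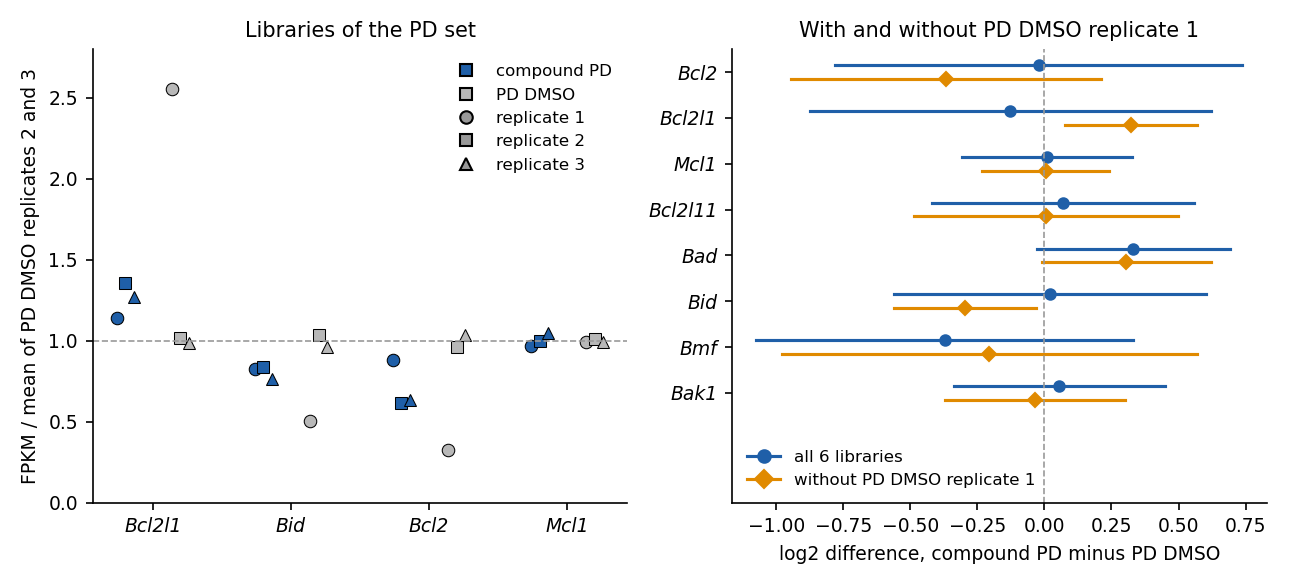
Left, FPKM of Bcl2l1, Bid, Bcl2 and Mcl1 in the 6 libraries of the PD set, divided by the mean of PD DMSO replicates 2 and 3 (vertical axis from 0), with compound PD left of PD DMSO. Right, log2 differences of 8 genes with 95% limma intervals, with all 6 libraries and without PD DMSO replicate 1: Bcl2l1 moved to 0.32 from -0.13, Bid to -0.30 from 0.02, and Mcl1 stayed at 0.01.

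Ratios within a library do not depend on how libraries were scaled to each other, and they are given as descriptions. The ratio of Bcl2l1 to its antagonist Bcl2l11 was 26.3, 18.4 and 17.4 with compound OB, against 25.3, 16.7 and 16.2 in OB DMSO. It was 16.7, 24.9 and 24.3 with compound PD, against 52.1, 15.7 and 19.1 in PD DMSO. Replicate 1 of both OB groups and PD DMSO replicate 1 were the high values, and the groups overlapped in both sets. The ratio of Mcl1 to Bcl2l11 was 18.6, 20.8 and 20.2 with compound OB, against 21.2, 20.8 and 20.5 in OB DMSO. It was 7.41, 9.58 and 10.5 with compound PD, against 10.5, 8.16 and 10.1 in PD DMSO, with overlap. All 6 libraries of the OB set lay above all 6 of the PD set for this ratio, and the sets list different genes, so the transcript lengths behind the FPKM may differ between them. The neutrophil marker sum was at most 410.6 FPKM in the OB set and at least 6216 FPKM in the PD set. The part of transcript lengths or cell content in this ratio was not tested. Bcl2l1 to Mcl1 was 1.41, 0.888 and 0.860 with compound OB, against 1.20, 0.804 and 0.792 in OB DMSO. It was 2.25, 2.60 and 2.32 with compound PD, against 4.94, 1.92 and 1.90 in PD DMSO, so Bcl2l1 exceeded Mcl1 in every library of the PD set and in replicate 1 of each OB group.

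Genes whose pattern over the 12 libraries was most like that of Bcl2l1 were found by the root mean square distance of log2(FPKM + 1), each set centred on its own mean, among 7183 genes averaging at least 5 FPKM in each set. The nearest was Fam214b at 0.0785, followed by Mxd1, a MAX-binding repressor of MYC targets, at 0.104, and Fzr1, an activator of the anaphase-promoting complex, at 0.106, where the median distance was 0.511. Mxd1 had 45.7, 29.7 and 26.6 FPKM with compound OB, against 43.3, 21.6 and 21.6 FPKM in OB DMSO, and 57.3, 64.3 and 63.7 FPKM with compound PD, against 113.6, 50.3 and 52.7 FPKM in PD DMSO. The same 3 libraries were high as for Bcl2l1. The nearest to Mcl1 were Znhit1 at 0.0586, Slc25a20, a mitochondrial carrier of acylcarnitines, at 0.0622, and Ifi35, an interferon-induced gene, at 0.0639, where the median distance was 0.222. A gene that varies little is near every other such gene by this measure. Bcl2l11 had a mean under 5 FPKM in the OB set and was not searched.

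The rest of the pathway was read from 9 lists of 63 genes, of which 53 were tested for each compound. None of the 53 passed under compound OB, where 0% of genes did, or under compound PD, where 0.0252% did. In the unpaired fits, 3 of 53 had an unadjusted p under 0.05 under compound OB, where 3.69% of genes did. Under compound PD, 2 of 53 did, where 10.7% of genes did. With the replicate block under compound OB, 1498 of 10069 genes had an unadjusted p under 0.05 by limma. Of the listed genes these were Bcl2l12, Bcl2l15, Bnip3, Bnip3l, Pmaip1, Endog, Htra2, Casp6, Xiap, Tnfrsf10b, E2f1, Myc, Stat5a and Ddit3. The smallest adjusted p among them was 0.211 by limma, for Myc. The median log2 difference of the 53 genes was -0.01 under compound OB, beside 0.03 over all genes tested, and 0.06 under compound PD, beside 0.06. Bax, the second effector, was abundant in all 12 libraries, with 398.6, 256.7 and 280.2 FPKM with compound OB, against 449.5, 242.8 and 283.8 FPKM in OB DMSO. Bax had 227.6, 220.7 and 224.1 FPKM with compound PD, against 206.7, 222.5 and 213.5 FPKM in PD DMSO, and its log2 difference was -0.04 under compound OB and 0.07 under compound PD (adjusted p 1.00 and 0.949 by limma).

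Bbc3 and Pmaip1, the genes of the BH3-only proteins PUMA and NOXA and targets of p53, were high in replicate 1 of both OB groups. Bbc3 had 52.3, 26.7 and 23.5 FPKM with compound OB, against 54.0, 20.3 and 23.9 FPKM in OB DMSO, as Cdkn1a was. It had 86.1, 91.5 and 97.6 FPKM with compound PD, against 123.4, 89.1 and 82.0 FPKM in PD DMSO. The log2 differences were 0.11 under compound OB (adjusted p 1.00 by limma) and -0.08 under compound PD (adjusted p 0.960 by limma). Pmaip1 had 3.50, 1.69 and 1.92 FPKM with compound OB, against 5.82, 2.61 and 2.42 FPKM in OB DMSO, and 8.14, 8.59 and 9.70 FPKM with compound PD, against 7.09, 11.2 and 10.3 FPKM in PD DMSO. Its log2 difference was -0.42 under compound OB (adjusted p 1.00 by limma) and -0.08 under compound PD (adjusted p 0.967 by limma), and the groups overlapped in both sets. Within every pair of replicate numbers Pmaip1 was lower with compound OB, as 16.7% of tested genes were. With the replicate block under compound OB, the adjusted p was 0.257 for Pmaip1 and 0.624 for Bbc3 by limma.

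By role, the 12 upstream regulators of the family (among them Epor, Jak2, Stat5a, Gata1, Trp53 and Myc) had a median log2 difference of 0.18 under compound OB, with 11 of 12 above 0, and 0.00 under compound PD, with 6 of 11 above 0. The 6 caspases had a median of -0.07 under compound OB, with 1 of 6 above 0, and 0.19 under compound PD, with 6 of 6 above 0. The tested death receptors and adaptors had a median of -0.07 under compound OB over 6 genes and 0.31 under compound PD over 8 genes. The 5 inhibitors of apoptosis had medians of -0.16 under compound OB and -0.01 under compound PD. Over all genes tested the median was 0.03 under compound OB and 0.06 under compound PD, the latter -0.03 with median-ratio scaling. The smallest adjusted p among the caspases under compound PD was 0.368 by limma. None of these listed genes passed the test in the fits above. With the replicate block and the replicate 1 pair left out, 1123 of 9963 genes passed under compound OB (11.3%), 0 of them members and 11 of them genes of these lists, among which 6 of the 12 upstream regulators (Akt1, E2f1, Epor, Myc, Stat5a and Trp53) were higher with compound OB. The summed neutrophil, macrophage, lymphoid and endothelial markers were higher in all compound PD libraries, the macrophage and endothelial ones only narrowly. The part of the marker shift was not tested.

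**Figure D4:**
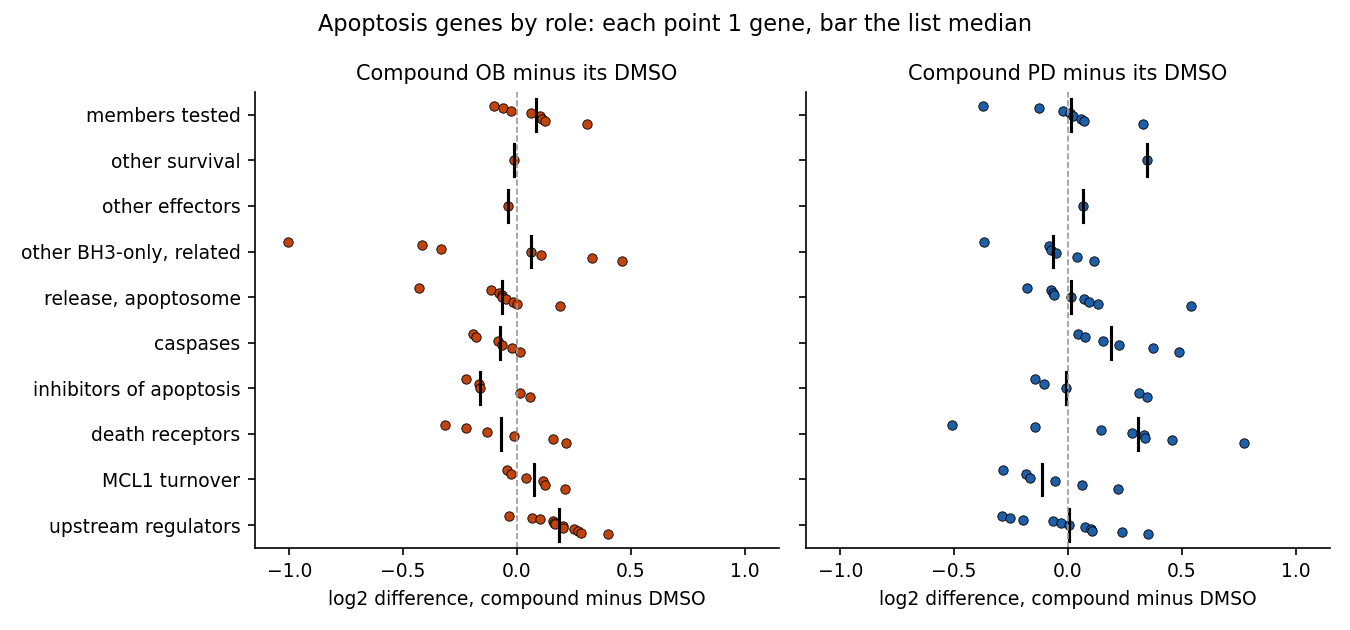
Log2 difference (horizontal axis, compound minus DMSO on the log2(FPKM + 1) scale) of each tested gene by role, with compound OB on the left and compound PD on the right; vertical bars are list medians. The caspases lie above 0 under compound PD with a median of 0.19, beside 0.06 over all genes tested, and no point passed the test.

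By position on GRCm38.p6, several members share their place with other genes, and whether strand was used in counting is not given in the sources used here. Bcl2l1 (chr2:152758732-152833803) overlaps Cox4i2, Bcl2l11 (chr2:128126038-128162547) overlaps Acoxl, Bad (chr19:6941861-6951905) overlaps Gpr137, and Bak1 (chr17:27019812-27028627) overlaps Ggnbp1, all protein-coding. Bcl2 (chr1:106538176-106714290), Bid (chr6:120893119-120917062) and Bik (chr15:83526790-83544635) overlap noncoding genes or pseudogenes. The values of these 7 genes are uncertain to that extent. Mcl1 (chr3:95656944-95663179) and Bmf (chr2:118528757-118549686) overlap no other RefSeq gene.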

How the data were processed

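RNA of 12 libraries in 4 groups of 3 was read from gene tables whose values are FPKM, deposited by the authors with the gene name. RNA was prepared with a Qiagen column kit, per the labels' protocols. The submitters' processing notes name STAR and the build mm10. How the FPKM were computed, on which annotation, with what use of strand and at what depth is not given in the sources used here; low values showed no step of 1 read, so no interval for counting error is given. Date-like, split or repeated names were left out, which kept 23591 of 24054 entries in the OB set and 54540 of 54752 in the PD set.

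Each set was fitted apart with limma 3.58.1 (R 4.3.3; trended, robust moderation) on log2(FPKM + 1), over genes averaging at least 1 FPKM, two-sided, with Benjamini-Hochberg adjustment over all genes tested and a threshold of 0.05. The difference between compounds was a contrast over all 12 libraries, for genes averaging at least 1 FPKM over those 12. Means and ratios were computed with pandas 2.3.3. The fit was tested on simulated data. No libraries were identical.

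The 9 members, the pathway lists and the marker lists were chosen with earlier results of these data known. All members are named, with Bax, Bbc3 and Pmaip1 always. Other pathway genes were to be named if they passed the test, and Cdkn1a, Rn45s, Rmrp and Rpph1 where a library stands apart. For Bcl2l1 and Mcl1 the 3 nearest genes are named, and Bcl2l11 fell under the minimum for that search. One erythroid marker of the list is not reported here and was left out of the sums.

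Equal replicate numbers were checked for pairing by the correlation of deviations from group means. In the OB set these were 0.83, 0.43 and 0.65 for replicates 1, 2 and 3, all over 0.1, so the numbers were taken to pair the libraries. The labels do not state pairing, so the unpaired fit stayed the planned main one and the block was an alternative. With the replicate as a block, 7 of 10069 genes passed under compound OB (0.0695%) and 0 members, whose adjusted p ran from 0.344 for Bcl2 to 0.905 for Bcl2l11. In the PD set they did not pair. Alternatives were another pseudocount, filter, scaling or moderation, the replicate block, and leaving out each library or pair.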

Additional observations from a re-analysis of the deposited data

How the results depend on the processing

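No member passed under any of 472 alternatives of 25 member results, the smallest adjusted p being 0.0871 by limma. Of the settings that leave no library out, 157 kept the direction and 9 reversed it. Under compound PD, Bcl2 became 0.0181 with a pseudocount of 0.1; with median-ratio scaling Mcl1 became -0.0827, Bcl2l11 -0.00952, Bid -0.0705 and Bak1 -0.0363; with quantile normalization Mcl1 became -0.0359, Bcl2l11 -0.0901 and Bid -0.0521, and the difference between compounds for Bcl2l11 became -0.0567. The median of all genes under compound PD was 0.06 as deposited, -0.03 with median-ratio scaling and -0.02 with quantile normalization. The same scaling moved the coefficient of variation of Mcl1 in the PD set to 9.77%, a check of that coefficient added after seeing the data.

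Leaving out 1 library or 1 pair reversed 45 estimates and kept the direction of 261. With 1 library out, the ranges under compound OB were -0.200 to 0.346 for Bcl2l1, -0.0857 to 0.0334 for Bcl2l11, -0.146 to 0.0329 for Bik and -0.0119 to 0.282 for Bak1. Those under compound PD were -0.362 to 0.322 for Bcl2l1, -0.368 to 0.173 for Bcl2, -0.0213 to 0.0368 for Mcl1, -0.0306 to 0.172 for Bcl2l11, -0.296 to 0.205 for Bid and -0.0349 to 0.158 for Bak1. Those of the difference were -0.472 to 0.260 for Bcl2l1, -0.00446 to 0.198 for Bcl2l11, -0.406 to 0.0960 for Bid and -0.226 to 0.0679 for Bak1. With the replicate block and 1 pair out, the reversed values under compound OB were -0.00625 for Bcl2l1 and -0.0145 for Bak1 (without replicate 2) and 0.00832 for Bcl2l11 (without replicate 3). Under compound PD they were 0.390 for Bcl2l1, -0.0954 for Bcl2l11, -0.310 for Bid and -0.0484 for Bak1 (without replicate 1), 0.194 for Bcl2 and -0.0305 for Bak1 (without replicate 2), and 0.225 for Bcl2 and -0.0249 for Mcl1 (without replicate 3). For the difference they were 0.328 for Bcl2l1 and -0.0693 for Bcl2l11 (without PD replicate 1), 0.0685 and 0.0832 for Bid (without PD replicates 2 and 3), and 0.0705 and 0.143 for Bak1 (without OB replicate 2 and PD replicate 3).

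Counts over all genes moved more. Under compound OB, 0 genes passed (372 at an unadjusted p under 0.05), 7 with the replicate block, 0 to 14 with 1 library out (14 without OB DMSO replicate 1) and 3, 146 and 1123 with the block and pair 3, 2 or 1 out. Under compound PD, 3 passed, 41 with the replicate block, 0 with no filter, 0 without trend or robust moderation, 0 to 167 with 1 library out (167 without PD DMSO replicate 1) and 70, 82 and 206 with the block and pair 2, 3 or 1 out. For the difference, 0 passed, 3 with a pseudocount of 0.1, 3 with no filter, 6 without trend or robust moderation, 0 to 15 with 1 library out and 0 to 262 with the block and 1 pair out. In the PD set the same-numbered libraries correlated at -0.01, -0.03 and -0.02, so they share only a number. The replicate block changed no call of a member. The causes of these shifts were not tested, and the unknown depth limits what can be said of Bmf, Bik and Bcl2.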

Other observations

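Outside the 9 members, some genes of the pathway lists are given here; they were chosen after their values were seen, and none passed the test over all genes with all libraries, paired or not. Under compound OB, Bnip3, the gene of a hypoxia-induced mitochondrial BH3-like protein, had 24.7, 34.4 and 60.9 FPKM with compound OB, against 33.0, 102.4 and 128.3 FPKM in OB DMSO, a log2 difference of -1.004 (95% interval -2.30 to 0.30, adjusted p 1.00 by limma), lower within each of 3 replicate numbers. Its relative Bnip3l, whose protein clears mitochondria from maturing red cells, had 75.0, 63.9 and 70.8 FPKM with compound OB, against 79.3, 84.4 and 102.0 FPKM in OB DMSO, with no overlap and a log2 difference of -0.33 (95% interval -0.62 to -0.04, adjusted p 1.00 by limma). With the replicate block the adjusted p was 0.225 for Bnip3 and 0.273 for Bnip3l, and with the replicate 1 pair also left out it was 0.00128 for Bnip3, with a log2 difference of -1.30, and 0.00447 for Bnip3l, with -0.46. Endog, the gene of a mitochondrial nuclease, had 5.02, 6.68 and 6.33 FPKM with compound OB, against 8.79, 7.51 and 8.96 FPKM in OB DMSO, with no overlap and a log2 difference of -0.43 (adjusted p 1.00 by limma). It passed with the block and the replicate 2 pair left out (-0.57, adjusted p 0.0193). Bcl2l15 had 3.59, 2.55 and 5.01 FPKM with compound OB, against 2.09, 2.52 and 2.46 FPKM in OB DMSO, a log2 difference of 0.46 (adjusted p 1.00 by limma), and it passed in that same setting (0.68, adjusted p 0.0186). Myc averaged 101.1 ± 9.23 FPKM with compound OB and 76.4 ± 7.71 FPKM in OB DMSO (SD, n = 3 each), with no overlap and a log2 difference of 0.40 (adjusted p 1.00 by limma). It passed with the block and the replicate 1 pair left out (0.50, adjusted p 0.00435), and in the difference between compounds with the block and the PD replicate 1 pair left out (-0.77, adjusted p 0.0421). Under compound OB, none of these genes passed with any other pair left out than the one named for it. Over all genes, 1123 of 9963 passed without the replicate 1 pair and 146 of 10094 without the replicate 2 pair. For the difference without the PD replicate 1 pair, 262 of 10229 did.

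Under compound PD, Tnfrsf1a, the gene of the main TNF receptor, had 27.9, 30.8 and 27.2 FPKM with compound PD, against 10.8, 20.4 and 19.5 FPKM in PD DMSO, a log2 difference of 0.77 (95% interval 0.23 to 1.32, adjusted p 0.278 by limma). Casp8, the caspase that cuts BID, had 31.5, 24.7 and 26.1 FPKM with compound PD, against 16.5, 19.3 and 22.1 FPKM in PD DMSO, with no overlap and a log2 difference of 0.49 (95% interval 0.08 to 0.90, adjusted p 0.368 by limma). Estimates wider than that of Casp8, with overlapping groups, were 0.54 for Endog (adjusted p 0.760 by limma) and -0.51 for the death receptor gene Tnfrsf10b (adjusted p 0.538). The summed neutrophil, macrophage, lymphoid and endothelial markers were higher in the same 3 libraries, the macrophage and endothelial ones only narrowly. Their part in these values was not tested.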
